A study of Mus musculus with 10 samples.

Results

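The eIF4 factors described here are 10 mouse genes that encode the cap-binding translation initiation machinery: the scaffolds Eif4g1, Eif4g2 and Eif4g3, the cap-binding proteins Eif4e and Eif4e2, the helicases Eif4a1 and Eif4a2 with their cofactor Eif4b, and the repressors Eif4ebp1 and Eif4ebp2. They were found by symbol among the 26401 genes of a count table, and all 10 passed the filter on low counts that left 12964 genes for testing. The family was chosen from the high against low difference in these same libraries, in which Eif4g3 stood out, so that difference is given for the 10 genes as a description, with no p-value and nothing drawn from it. RNA was measured by poly(A)-selected RNA sequencing in 10 lines of immortalized mouse embryonic fibroblasts, cells that carry both mutant and wild-type copies of mitochondrial DNA. All 10 lines carry the m.5024C>T mutation, in the mitochondrial tRNA for alanine, and are recorded as C57Bl/6N. There were 5 high heteroplasmy libraries and 5 low heteroplasmy libraries, each from a differently numbered clone, and libraries are called high 1 to high 5 and low 1 to low 5. Both groups were untreated and grew in high-glucose DMEM with 10% fetal bovine serum and 50 µg/ml uridine. Each library is 1 clonal population, so a difference between the groups is a difference between 5 clones and 5 other clones. The sources used here do not give the share of mutant mitochondrial DNA in each clone.

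In cap-dependent translation, eIF4E holds the cap at the start of an mRNA and eIF4G joins it to the helicase eIF4A, which unwinds the leader with the help of eIF4B, and to poly(A)-binding protein at the other end. The eIF4E-binding proteins compete with eIF4G for eIF4E, and the kinase complex mTORC1 releases that block by phosphorylating them. Eif4g1 and Eif4g3 encode the full scaffolds, while the Eif4g2 product lacks the part that binds eIF4E. The Eif4e2 product binds the cap and is known mainly as a repressor. These are steps of protein activity, and the RNA levels below do not measure them.

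Total counts ran between 19264064 and 28208576 in the high libraries and between 17318372 and 24967748 in the low libraries. The first principal component, 32.4% of the variance, separated the groups. Fibroblast markers Col1a1, Vim and Fn1 were abundant in every library, but others of the 12 listed were not. Lum was at 0 in 8 of 10 libraries, and Dcn reached 0.610 CPM in high and 3.53 CPM in low libraries. Fap reached 0.0757 CPM in high and 0.586 CPM in low libraries. Thy1 had 0 to 56.8 CPM in high and 0 to 0.326 CPM in low libraries. In the same order, Pdgfra had 0.266 to 50.9 and 2.12 to 9.29 CPM. Col1a2 had 1.98 to 614 and 72.9 to 886 CPM, and Col3a1 9.62 to 219 and 13.2 to 165 CPM. Pdgfrb and S100a4 were read in every library. The defining markers Ptprc (blood), Cdh5 (endothelium), Sox10 (neural crest) and Myog (muscle) were at 0 in all 10, but other genes of those lists were read. Cd68 (blood) had 11.7 to 90.0 CPM in high and 12.3 to 26.02 CPM in low libraries, Des (muscle) 4.03 to 24.5 CPM in high and 2.06 to 5.01 CPM in low libraries, and Pecam1 (endothelium) at most 0.711 CPM in high and 0.217 CPM in low libraries. The 4 adipocyte markers, of which Adipoq was at 0 in 9 libraries, summed to 87.7 to 287 CPM in high libraries and 22.0 to 37.4 CPM in low libraries. The 6 epithelial markers summed to 113 to 509.6 CPM (high) and 454 to 672 CPM (low). Among them Krt19 had 109.5 to 384 CPM in high and 442 to 666 CPM in low libraries, while Krt18 ran the other way, with 2.27 to 294 CPM in high and 0.327 to 0.598 CPM in low libraries. The 4 neural markers, mostly Nes, summed to 76.1 to 203 CPM (high) and 300 to 333 CPM (low). Gm42418, a transcript that overlaps ribosomal RNA sequence, took 745 to 1154 CPM in high libraries and 1149 to 40941 CPM in low libraries, with low 2 and low 3 at 40941 and 8017 CPM. Results were refitted without low 2 and low 3. The part of the marker differences in any result below was not tested.

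Eif4g3, on chromosome 4 (GRCm38, 137993022 to 138208508, plus strand), was almost without reads in the high clones. It had 0, 0, 0, 4 and 0 counts in high libraries 1 to 5, against 282, 596, 309, 345 and 419 counts in low libraries 1 to 5. In CPM, counts scaled to library size after trimmed-mean (TMM) normalization, this was 0.0318 ± 0.0711 in high and 20.04 ± 7.71 in low clones (SD, n = 5 each). Every low library lay far above every high library, and high 4 was the only high library with a read. At the depth of the 4 high libraries with no count, 3 counts would correspond to 0.0998 to 0.152 CPM, which is the level that remains possible there, as far as counting error goes. Pooled over libraries, 4 high against 1951 low counts give a low-to-high ratio of 610.3, with an exact 95% counting interval of 238 to 2242. That interval covers counting error only and leaves out the spread between clones. In bulk RNA, fewer cells that express a gene and less RNA per cell cannot be told apart. Eif4g3 is known in the mouse for a role in male meiosis, where its loss stops spermatocytes.

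Windows before a transcript start of Eif4g3 and of its closest paralog are shown because the 2 genes both encode full scaffolds and had very different levels. Each is the 250 bases before a RefSeq transcript start (GRCm38.p6, plus strand, 5' to 3'), chr4:137993205-137993454 for Eif4g3 and chr16:20672477-20672726 for Eif4g1, with CG dinucleotides in capitals. Both windows lie inside the GENCODE spans of the genes, which begin at 137993022 on chromosome 4 for Eif4g3 and at 20668313 on chromosome 16 for Eif4g1, so other annotated transcripts start before them.

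Eif4g3: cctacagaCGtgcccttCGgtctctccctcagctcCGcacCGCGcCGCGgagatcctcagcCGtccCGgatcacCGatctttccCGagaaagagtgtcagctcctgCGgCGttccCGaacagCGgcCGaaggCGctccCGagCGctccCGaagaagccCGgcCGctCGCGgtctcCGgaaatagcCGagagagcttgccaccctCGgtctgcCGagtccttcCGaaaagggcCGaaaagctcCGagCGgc

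Eif4g1: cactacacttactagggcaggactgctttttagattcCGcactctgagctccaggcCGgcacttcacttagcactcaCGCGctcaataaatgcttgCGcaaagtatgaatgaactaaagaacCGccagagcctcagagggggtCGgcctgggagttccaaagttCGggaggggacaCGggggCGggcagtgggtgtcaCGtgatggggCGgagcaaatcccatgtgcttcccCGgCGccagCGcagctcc

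The Eif4g3 window holds 32 CG dinucleotides, more than 95.4% of the 32851 RefSeq promoter windows of this length, whose median is 6. The Eif4g1 window holds 15, more than 72.7% of them. The letters CACGTG, which read the same on both strands and include a CG, occur once in the Eif4g1 window and not in the Eif4g3 window. Across the 8 eIF4 genes with a RefSeq window, CACGTG was found for 3 (Eif4g1, Eif4e and Eif4a1), and 6.02% of all windows hold it. No methylation or binding was measured, and the absence of these letters says nothing about any factor.

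Eif4g1, on chromosome 16, encodes the main scaffold and was 1 of the most abundant members. Its level was 555, 956, 656, 1041 and 1198 CPM in high libraries 1 to 5, against 564, 895, 869, 1162 and 995 CPM in low libraries 1 to 5. The groups overlapped over nearly their whole ranges, with a log2 fold change (high over low) of -0.03 ± 0.25 (SE). Eif4g2, on chromosome 7, had 431, 809.6, 619.7, 582 and 578 CPM in high libraries, against 535, 617, 729, 797 and 786 CPM in low libraries. It overlapped too, at a log2 fold change of -0.20 ± 0.18 (SE). Both genes were lowest in library 1 of each group.

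**Figure D1:**
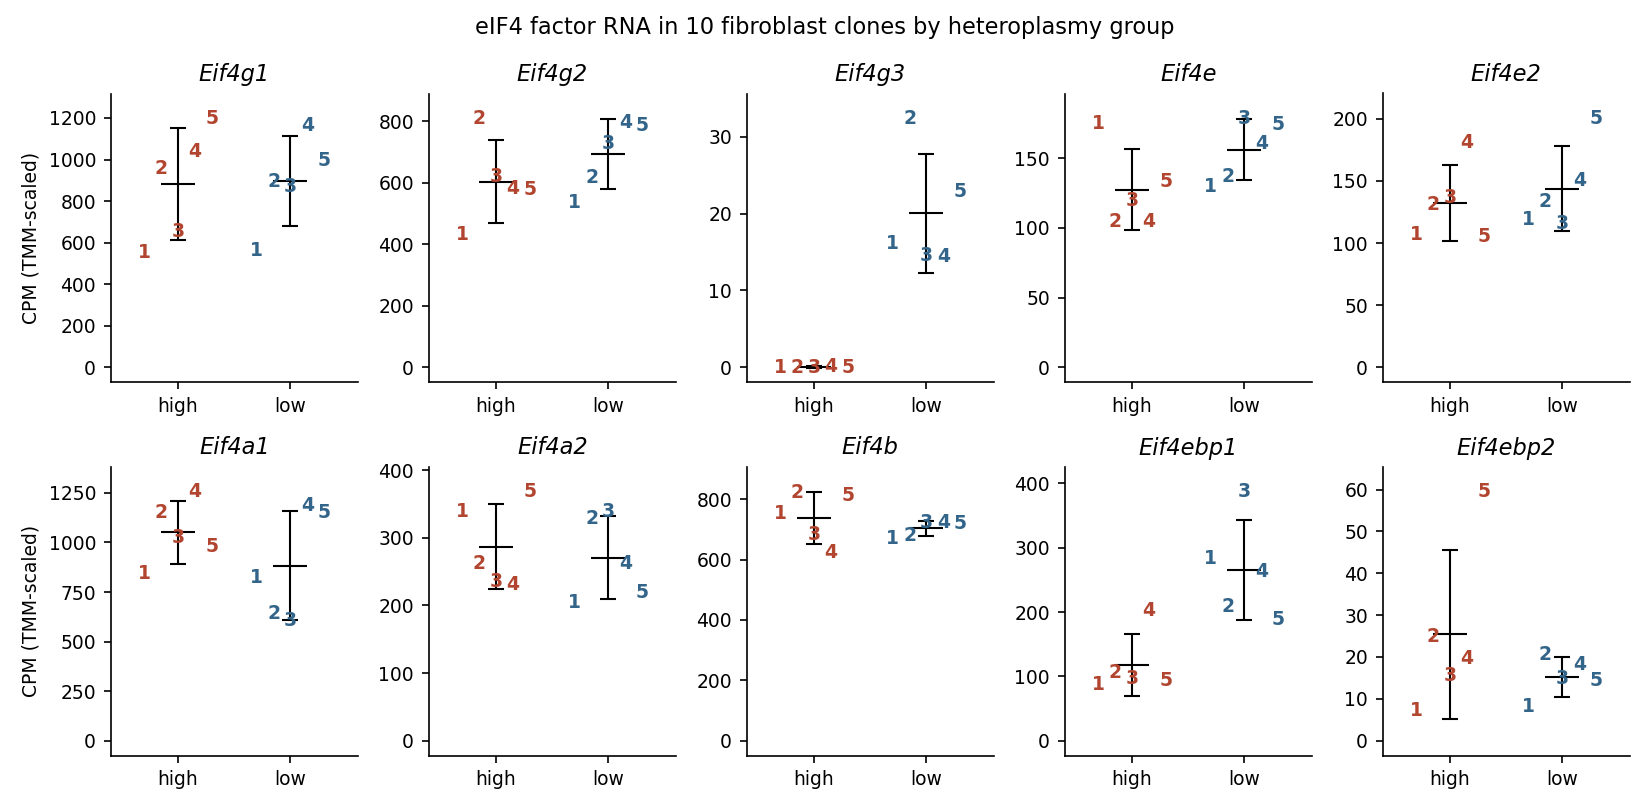
Level of each of the 10 eIF4 genes in CPM (linear axes from 0) in each clone, shown as the library's number, with high clones left of low clones and bars at the group mean ± SD. Eif4g3 is at 0 in 4 of 5 high libraries and between 14.4 and 32.4 CPM in the low libraries, while the other 9 genes overlap between the groups.

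Whether the paralogs rose by as much as Eif4g3 was lost can be asked of levels per length, in CPM per kilobase of exon. Eif4g3 was a minor scaffold transcript even in the low clones. It made up 0.00144% of the summed Eif4g1, Eif4g2 and Eif4g3 level in high clones and 0.972% ± 0.401 (SD, n = 5) in low clones, where it ranged between 0.546 and 1.57%. The difference between the group means was 1.81 CPM per kilobase, which equals 1.47% of the low-clone mean of Eif4g1 and 2.65% of that of Eif4g2. Observed means per kilobase were 121 ± 36.8 in high and 123 ± 30.0 in low clones for Eif4g1, and 59.4 ± 13.3 in high and 68.1 ± 11.2 in low clones for Eif4g2 (SD, n = 5 each). Neither paralog had a higher mean in the high clones: the percentage differences were -1.78 for Eif4g1 and -12.8 for Eif4g2. The median log2 fold change of tested genes was 0.26 on the Eif4g1 chromosome and -0.06 on the Eif4g2 chromosome. With each chromosome's shift taken out library by library, the log2 fold changes were -0.24 for Eif4g1 and -0.09 for Eif4g2. The spread of Eif4g1 among low clones was 16.6 times the Eif4g3 difference, and that of Eif4g2 was 6.18 times, so a rise just large enough to replace Eif4g3 was not detectable here.

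The summed scaffold level was 180 ± 43.8 CPM per kilobase in high clones and 193 ± 40.2 in low clones (SD, n = 5 each). By library it was 118, 211, 151, 199.8 and 221 in high clones, against 131, 186, 192, 239 and 216 in low clones. The difference of -12.7 was smaller than either SD, and its sign depended on 1 library: it was 2.71 without high 1, and -28.1 without low 1.

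**Figure D2:**
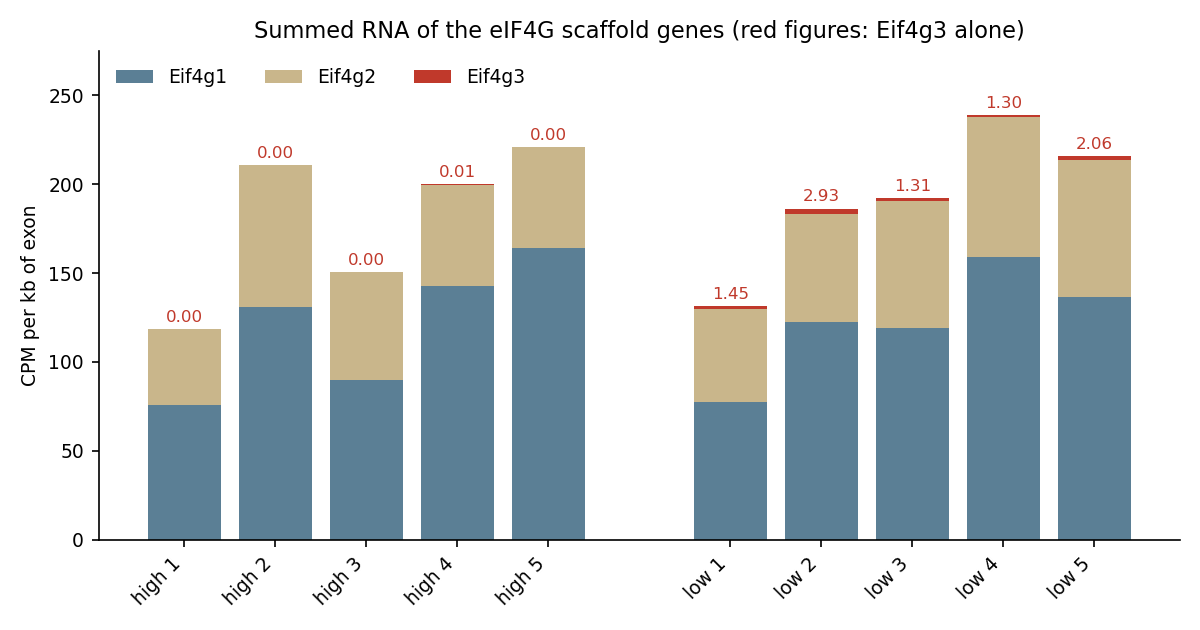
Summed level of the 3 Eif4g scaffolds in CPM per kilobase of exon by library, high clones left of low clones, stacked by gene, with the Eif4g3 level printed above each bar. Eif4g1 and Eif4g2 fill the bars in both groups, and Eif4g3 reaches at most 1.57% of a bar, in low 2.

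Eif4e, on chromosome 3, encodes the cap-binding protein itself. It had 175, 105, 119, 104 and 133 CPM in high libraries 1 to 5, against 129.7, 137, 179, 160.4 and 174 CPM in low libraries 1 to 5. The groups overlapped through high 1 and high 5, with a log2 fold change of -0.29 ± 0.17 (SE). Eif4e2, on chromosome 1, ranged between 105 and 181 CPM in high and between 116 and 200.4 CPM in low clones, at -0.12 ± 0.20 (SE). Its share of the summed Eif4e and Eif4e2 level per length was 45.5% ± 9.90 in high and 42.3% ± 5.01 in low clones (SD, n = 5 each). Eif4e shares 654 bases at 98.6% identity with the pseudogene Gm7327, which had 9 to 39 counts.

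Eif4a1, on chromosome 11, encodes the major helicase and ranged between 844 and 1255 CPM in high and between 609 and 1186 CPM in low clones. Low 2 and low 3, the libraries rich in Gm42418, were its lowest, and its log2 fold change of 0.25 ± 0.22 (SE) was 0.01 without them. Eif4a2, on chromosome 16, ranged between 232 and 368 CPM in high and between 204 and 339 CPM in low clones (0.09 ± 0.20, SE). Summed per length, the 2 helicases reached 296 ± 29.0 CPM per kilobase in high and 254 ± 56.2 in low clones (SD, n = 5 each), with overlap. Reads may be divided between Eif4a1 and the pseudogene Eif4a-ps4, identical to it over 452 bases (256 to 844 counts). Eif4a2 overlaps Rfc4 on the other strand (1631 to 2707 counts), and whether counting used the strand is not stated. Eif4b, on chromosome 15, which stimulates the helicases, was the steadiest member, at 738 ± 85.7 CPM in high and 703 ± 25.8 CPM in low clones (SD, n = 5 each). Its log2 fold change was 0.07 ± 0.13 (SE).

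Eif4ebp1, on chromosome 8, encodes a repressor that mTORC1 inactivates. Its level was 88.0, 106, 97.0, 202 and 93.6 CPM in high libraries 1 to 5, against 283, 208, 387, 263 and 189 CPM in low libraries 1 to 5. Of the high libraries, 4 lay below every low library, and high 4 lay above low 5 alone. The log2 fold change was -1.18 ± 0.27 (SE), where the median over the 700 tested genes of chromosome 8 was -0.59. With each chromosome's shift taken out library by library, the Eif4ebp1 difference was -0.64. Eif4ebp2, on chromosome 10, had 7.32, 24.9, 15.7, 19.6 and 59.4 CPM in high libraries, against 8.15, 20.5, 14.9, 18.2 and 14.3 CPM in low libraries. Its log2 fold change of 0.74 ± 0.47 (SE) rested on high 5, and was 0.14 without that library.

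Per length, the summed repressors stood to Eif4e as 1.42, 3.02, 2.36, 5.49 and 2.38 in high libraries 1 to 5, against 6.04, 4.32, 6.01, 4.599 and 3.05 in low libraries 1 to 5. The means were 2.94 ± 1.54 in high and 4.80 ± 1.26 in low clones (SD, n = 5 each), and the groups overlapped through high 4. Eif4ebp2 gave 3.06 to 19.4% of the summed repressor level in high and 1.08 to 3.61% in low clones.

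Of the 10 members, 2 were among the genes that the fit over all genes called at an adjusted p of 0.05 (edgeR), Eif4g3 and Eif4ebp1, both lower in high clones. Over all tested genes that share was 4.86%, with 1.99% higher and 2.87% lower, and it was 11.4% with DESeq2 and 5.30% with limma-voom. The groups did not overlap for 1 member, Eif4g3, and for 7.17% of all tested genes. Because the members were picked on this contrast, nothing is read from these counts. The members' median log2 fold change was -0.07 and that of all tested genes 0.02, with 4 members positive and 6 negative. The Eif4ebp1 call, which is no test for a member picked on this contrast, held in 3 of 10 fits that left out 1 library. It was lost without high 2, high 3 or high 5, without low 1, low 2, low 3 or low 4, without low 2 and low 3 together, and with the chromosome shifts taken out.

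**Figure D3:**
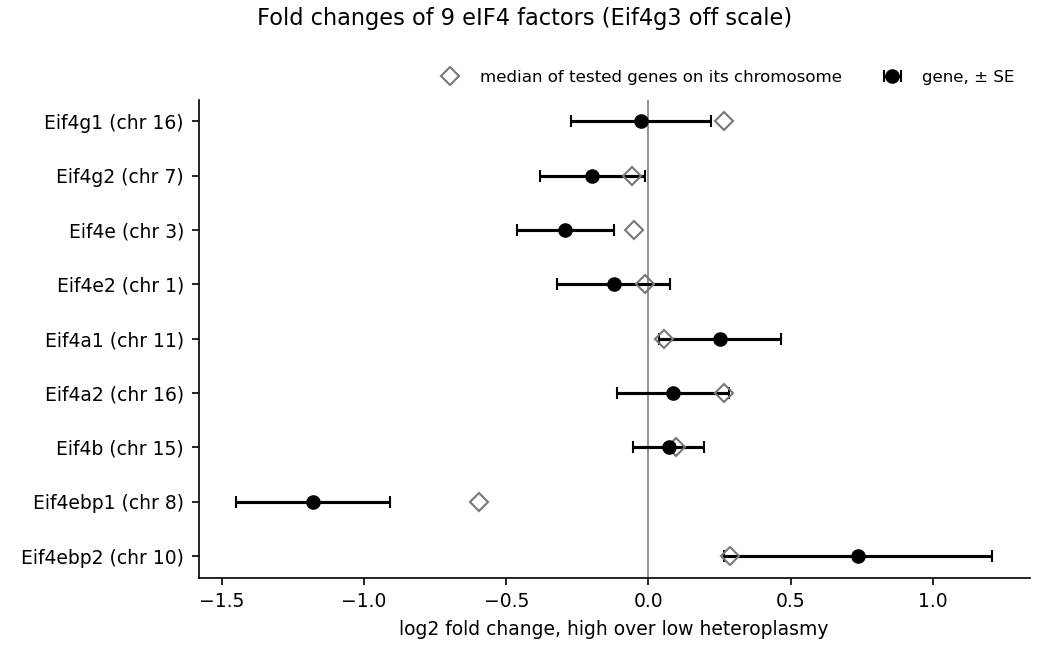
Log2 fold change (high over low) of 9 members from the edgeR fit (points, bars of 1 SE), with the median of the tested genes on each member's chromosome as an open diamond; Eif4g3 is off the scale. Eif4ebp1 lies at -1.18 beside a chromosome median of -0.59, Eif4ebp2 at 0.74, and the other 7 members between -0.29 and 0.25.

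Ordered by mean level per length over the 10 libraries, Eif4a1 came first at 223 CPM per kilobase, before Eif4b (161), Eif4g1 (122), Eif4ebp1 (87.3), Eif4g2 (63.8), Eif4a2 (52.2), Eif4e (23.6), Eif4e2 (18.4), Eif4ebp2 (3.51) and Eif4g3 (0.907). The 10-library ranges of neighbours overlapped, except that all Eif4a2 values lay above all Eif4e values and all Eif4e2 values above all Eif4ebp2 values. Compared within each library, Eif4b lay above Eif4g1, and Eif4ebp2 above Eif4g3, in 9 of 10 libraries. In 8 of 10, Eif4a1 lay above Eif4b, Eif4g1 above Eif4ebp1 and Eif4e above Eif4e2. Eif4g2 lay above Eif4a2 in 7 of 10, and Eif4ebp1 above Eif4g2 in 6 of 10. The order was not tested. With the longest transcript as the length, Eif4a2 moved ahead of Eif4ebp1 and Eif4g2, and Eif4e2 ahead of Eif4e. The place of Eif4ebp1 differed between the groups: its mean of 53.5 CPM per kilobase in high clones lay just under those of Eif4g2 (59.4) and Eif4a2 (53.8), and its mean of 121 in low clones lay next to that of Eif4g1 (123).

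The wider initiation, mTORC1 and elongation machinery was examined in lists of genes. Of 96 listed genes that are not members, 92 were tested, 2 rose in high clones and 0 fell, which is 2.17% against 4.86% of all tested genes. At an unadjusted p under 0.05 the count was 9, DESeq2 called 3 higher and 1 lower, and limma-voom 2 higher and 1 lower. Over all tested genes DESeq2 called 11.4% and limma-voom 5.30%, and nothing is read from list counts this small. The p-values weigh the difference between the groups against the spread between these clones.

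Deptor, which encodes an inhibitor of mTOR, rose in high clones. It had 52.1, 149, 72.3, 68.01 and 41.1 CPM in high libraries 1 to 5, against 7.18, 6.25, 4.93, 1.92 and 7.95 CPM in low libraries 1 to 5. Every high library lay above every low library, with a log2 fold change of 3.76 ± 0.45 (SE, edgeR adjusted p = 0.00262), and the call held in all 19 alternative fits. It was the 1 gene of 25 called in the mTORC1 list, whose median log2 fold change was 0.06. Lamtor3, a subunit of the Ragulator complex that brings mTORC1 to lysosomes, had -0.59 ± 0.21 (SE, edgeR adjusted p = 0.126).

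Pabpc1l, a poly(A)-binding protein known from mouse oocytes, also rose, at 2.59 ± 1.47 CPM in high and 0.608 ± 0.280 CPM in low clones (SD, n = 5 each). The groups did not overlap, and the log2 fold change was 2.08 ± 0.47 (SE, edgeR adjusted p = 0.0326). Removing high 2, high 3 or any one of low 1 to low 4 ended the call (adjusted p between 0.0512 and 0.0783), which held in the 4 other such fits. It was also lost with the replicate number as a block (adjusted p = 0.0887), with the chromosome shifts taken out (0.0677) and without low 2 and low 3 together (0.169). It was the 1 gene called of 6 poly(A)-binding genes, whose median was -0.02, and the repressor Paip2b had 0.42 ± 0.20 (SE, edgeR adjusted p = 0.262).

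In the other 6 lists edgeR called 0 genes. For the 8 tested cap-binding regulators the median log2 fold change was -0.07, and 1 was at an unadjusted p under 0.05 and 0 called by DESeq2 or limma-voom. Eif4enif1, whose product carries eIF4E into the nucleus, had 0.39 ± 0.16 (SE, edgeR adjusted p = 0.167), and Angel1, whose product binds eIF4E, had 0.71 ± 0.52 (SE, edgeR adjusted p = 0.474). The cap-binding paralogs Eif4e3 and Eif4e1b were essentially unread, with at most 1 and 2 counts in a library, and with Eif4ebp3 and Cyfip2 they were not tested. The 6 genes listed as eIF4A and helicase partners had a median of 0.32, with 1 at an unadjusted p under 0.05 and 0 by the other tools. They include Pdcd4, an inhibitor of eIF4A, at 0.55 ± 0.33 (SE, edgeR adjusted p = 0.364) and the helicase Ddx6 at 0.45 ± 0.16 (SE, edgeR adjusted p = 0.122).

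All 14 eIF3 subunit genes stayed short of the threshold, 0 of them even at an unadjusted p under 0.05 or by the other tools, with a median of -0.05. Eif3i (-0.17) and Eif3j2 (0.35) had the smallest p-values among them. The 18 genes of eIF1, eIF2, eIF2B and eIF5 had a median of -0.08 and 2 at an unadjusted p under 0.05. They are Mcts1, a reinitiation factor, at 16.6 ± 7.38 CPM in high and 34.1 ± 7.29 CPM in low clones (SD, n = 5 each; edgeR adjusted p = 0.0631), and Eif2b3, a subunit of the exchange factor eIF2B, at 39.3 ± 6.96 CPM in high and 26.3 ± 5.43 CPM in low clones (edgeR adjusted p = 0.0892). DESeq2 called both, limma-voom called Mcts1, and with the chromosome shifts taken out edgeR called Mcts1 (adjusted p = 0.0491). The 6 eIF2 kinase and phosphatase genes had a median of 0.02 and 0 calls by any of the 3 tools, also at an unadjusted p under 0.05. The kinase Eif2ak1 had 0.21 ± 0.14 (SE) and the phosphatase subunit Ppp1r15a -0.41 ± 0.27 (SE). Of the 9 elongation and termination genes, with a median of -0.06, 1 was at an unadjusted p under 0.05 and 0 were called by the other tools. Eef1b2, an exchange factor for the elongation factor eEF1A, had -0.46 ± 0.19 (SE, edgeR adjusted p = 0.181), and the kinase Eef2k, which inactivates eEF2, had 0.75 ± 0.35 (SE, edgeR adjusted p = 0.243).

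**Figure D4:**
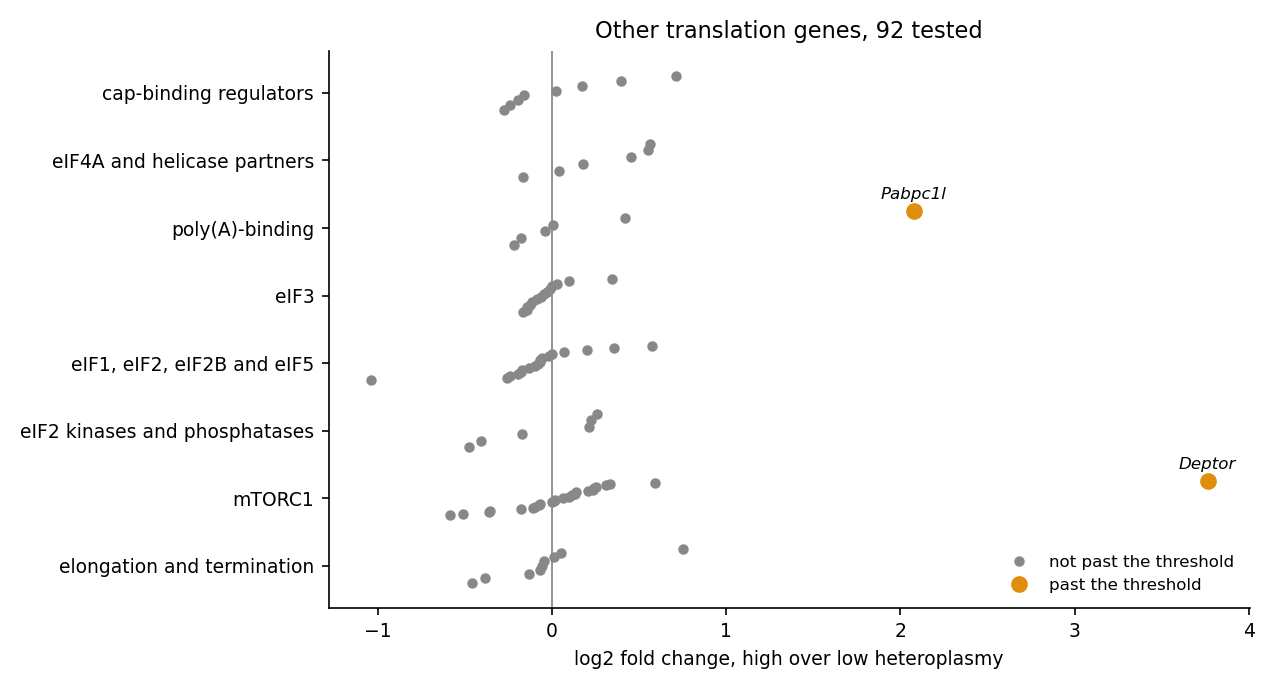
Log2 fold change (high over low) of each tested gene in the 8 lists, with the genes called by edgeR marked. Deptor at 3.76 and Pabpc1l at 2.08 are the 2 called genes, and the list medians lie between -0.08 and 0.32.

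The nearest genes on both sides of Eif4g3 were read in both groups. Of 22 genes tested within 1 Mb, whose median log2 fold change was 0.12, 1 rose and 0 fell in edgeR, 5 were at an unadjusted p under 0.05, DESeq2 called 2 higher and 1 lower, and limma-voom 1 higher and 1 lower. Over all tested genes the shares called were 4.86% (edgeR), 11.4% (DESeq2) and 5.30% (limma-voom), and nothing is read from counts this small. Ece1, which encodes an endothelin-converting enzyme and ends 27.8 kb before Eif4g3, had 143 ± 40.1 CPM in high and 92.1 ± 10.2 CPM in low clones (SD, n = 5 each; edgeR adjusted p = 0.0852). Hp1bp3, which encodes a heterochromatin-binding protein and starts 7.79 kb after it, had 214 ± 27.0 CPM in high and 191 ± 10.8 CPM in low clones (SD, n = 5 each; edgeR adjusted p = 0.485). The next genes, Rap1gap (0.13), Usp48 (0.30), Sh2d5 (-0.18) and Ddost (0.11), did not pass the threshold either. Camk2n1, an inhibitor of the kinase CaMKII, is the gene the other tools called lower, at 0.769 ± 0.739 CPM in high and 4.73 ± 3.10 CPM in low clones (SD, n = 5 each; edgeR adjusted p = 0.0605), and was also named after its values were seen. Cda, a cytidine deaminase gene picked out after its values were seen, rose by 0.90 ± 0.23 on the log2 scale (SE, edgeR adjusted p = 0.0460). That call held in 1 of 10 fits without 1 library, the one without high 2, with adjusted p-values of 0.0535 (without low 3) to 0.0990 (without low 4) in the other 9. It was also lost with the chromosome shifts taken out (0.0975) and without low 2 and low 3 together (0.109).

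Around Eif4ebp1, 7 genes were tested within 1 Mb, all on its lower-coordinate side, and their median log2 fold change was -0.76. The nearest, Adrb3 (-2.16), Rab11fip1 (-0.80) and Brf2 (-0.66), did not pass edgeR's threshold. In edgeR 0 rose and 2 fell, and DESeq2 called 5 lower and limma-voom 4 lower, beside the same shares over all tested genes. The 2 that fell were named after their values were seen: Plpbp, at 61.6 ± 5.48 CPM in high and 104 ± 12.9 CPM in low clones (edgeR adjusted p = 0.0135), and Erlin2, at 67.3 ± 8.76 CPM in high and 106 ± 13.2 CPM in low clones (SD, n = 5 each; edgeR adjusted p = 0.0274). The Plpbp call held without any 1 library. For Erlin2, removing high 2, high 3 or any single low library other than low 3 ended the call (adjusted p between 0.0512 and 0.0763). With the chromosome shifts taken out neither was called, at -0.18 for Plpbp and -0.07 for Erlin2, nor was either without low 2 and low 3 together.

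**Figure D5:**
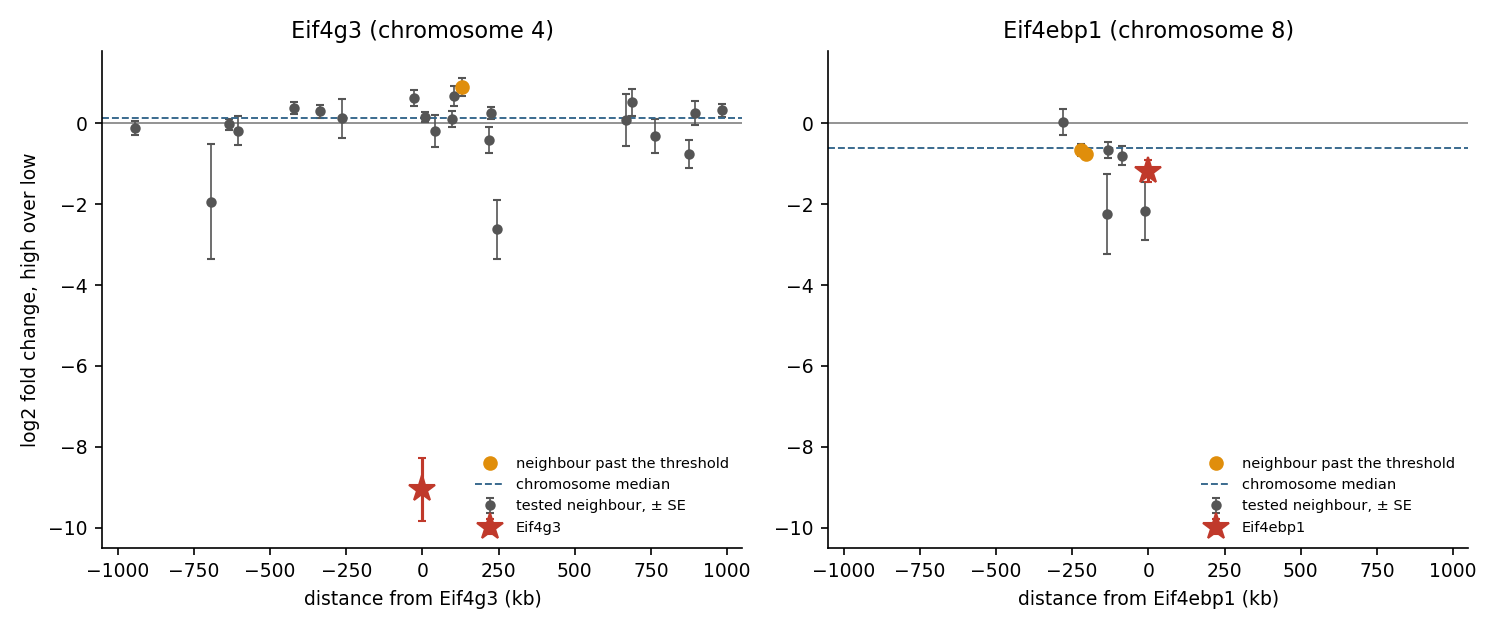
Log2 fold change (high over low) of tested genes within 1 Mb of Eif4g3 and of Eif4ebp1, against distance in kilobases from that gene, with bars of 1 SE and a dashed line at the chromosome's median. Around Eif4g3 the neighbours scatter about a median of 0.12, while 6 of the 7 around Eif4ebp1 lie below 0.

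The profile of Eif4g3 was compared with 11304 genes whose mean reached 1 CPM, leaving out genes with a Gm, Rik or clone name. The most alike log2 CPM profiles over the 10 libraries were those of Nr2f1 (Pearson r = 0.987), Asah1 (0.978), Ppp1r14c (0.975), Golga7 (0.975) and Tmem192 (0.974). Asah1, Golga7 and Tmem192 lie on chromosome 8. Nr2f1, a nuclear receptor gene on chromosome 13, had 0.154 ± 0.0809 CPM in high and 8.25 ± 3.83 CPM in low clones (SD, n = 5 each). The most opposite profiles were those of Rpusd3 (-0.980), Gsdme (-0.969) and Phykpl (-0.964). The 10 points share the split into high and low clones, and no test is given.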

How the data were processed

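Gene counts were deposited by the authors as a table of raw, unnormalized read counts per gene. Per the submitters' processing notes, STAR 2.7.8a, DESeq2 1.36.0, R 4.2.1 and the builds GRCm38 and mm10 were used, with no role stated. The sources used here name neither the counter nor its strand setting. Per the labels' protocols the library kit was directional. A table of normalized values was not used here.

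Symbols, positions and exon lengths came from GENCODE M21 (GRCm38), and 195 IDs had no match. The counts were fitted with edgeR 4.0.16 (filterByExpr, TMM scaling, robust quasi-likelihood test, group only, 5 high and 5 low libraries, Benjamini-Hochberg over 12964 genes, threshold 0.05). Levels per length are CPM over kilobases of merged exons, and log2 CPM uses a prior count of 2. The fit was tested on simulated data with 200 changed genes. Alternatives were DESeq2 1.42.0, limma-voom (limma 3.58.1), other scalings and filters, chromosome shifts taken out, a replicate block and leaving out libraries. Near copies were found with blastn 2.17.0 (at least 95% identity over 100 bases). Upstream sequences are from RefSeq (GRCm38.p6).

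The members and lists were chosen with earlier results of these data known. Named were all members, of each list the called genes or the 2 with the smallest p, the 3 nearest tested neighbours on each side, and the 5 most and 3 least alike profiles. Counting intervals and floors cover counting error only. Correlations across libraries are descriptions.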

Additional observations from a re-analysis of the deposited data

Results flagged for a closer look

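In the high clones, high 4 was flagged against the other 4 libraries for 2 members. For Eif4g3, its 4 counts against 0 in each of the others put the whole range in that gap, a gap-to-range ratio of 1.0. With 4 libraries at 0, any count in the fifth gives this ratio, so the flag does not show that high 4 differs. Its 0.159 CPM lay next to the 0.0998 to 0.152 CPM that remains possible in the others. For Eif4ebp1, high 4 had 202 CPM while the other high clones had 88.0 to 106 CPM, a ratio of 0.774 on the log2 scale, above the critical value of 0.71 for 5 libraries. In all, 24 groups of 5 were examined this way, and chance flags about 1 in 20, a rate that does not apply to the Eif4g3 flag.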

How the results depend on the processing

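Over all genes, 630 calls became 1475 with DESeq2, 164 with chromosome shifts taken out and 56 without the 2 low libraries rich in Gm42418. Leaving out 1 library gave 232 to 821 calls, and the removals that cut the count most were high 3 (232 calls), low 1 (236), low 2 (244), low 3 (254), low 4 (270), high 2 (359) and low 5 (372). The 2 list calls became 4 with DESeq2, 1 with the replicate block, 1 without the Gm42418-rich pair, and 1 to 4 without 1 library. With chromosome shifts taken out there were again 2, with Mcts1 in place of Pabpc1l. The 2 member calls became 1 with chromosome shifts taken out, 1 without the Gm42418-rich pair, and 1 to 2 without 1 library. The cause was not tested. Of 531 refitted values for tested single genes, 485 kept their side of the threshold, 31 lost a call, 15 gained one and 0 called values changed sign. Of the 190 for members, 2 moved by more than their spread, and Eif4ebp1 was not called in 9 of its 19. The fitted Eif4g3 log2 fold change was -9.05, and -11.79 without high 4. The scaffold sum and the repressor ratio moved by less than 1 SD.

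Replicate numbers did not pair the libraries throughout. Same-numbered deviations correlated at 0.46 for number 1, and at -0.05, 0.03, 0.07 and 0.16 for numbers 2 to 5. Of 5 high libraries, 2 lay closest to their own number, high 1 and high 5. The replicate block gave 577 calls over all genes and lost Pabpc1l. Other scalings moved the median log2 fold change by at most 0.02. Depth limits Eif4g3 in high clones and the 4 list genes not tested.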
